A study of Mus musculus with 16 samples.

Results

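The genes of sugar breakdown and of the response to low oxygen were followed here in primary mouse cortical neurons. The set was named gene by gene: the enzymes of glycolysis, the glucose and lactate transporters, lactate dehydrogenase, and well-known targets and regulators of the hypoxia-inducible factor. It holds 33 named genes, of which 32 have a row among the 22440 genes of the expression tables; the enolase gene Eno1 is not analysed here. Neurons were prepared from the cortex of Swiss-Webster mouse embryos at embryonic day 16. Total RNA was sequenced from 4 cultures, 1 library in each group. The etoposide culture received 5 µM etoposide, a drug that traps DNA topoisomerase II on cut DNA, for a time the labels do not give. Its control, called the etoposide control below, carries a label that names no treatment. The NMDA culture was exposed to 50 µM NMDA, an agonist of a class of glutamate receptors. The protocol gives 10 min of exposure and 10 min of recovery, and says that this held for most experiments. Its control, called the NMDA control below, likewise has a label that names no treatment. No group carries an allele or a transgene. The other 12 samples of the study are chromatin immunoprecipitations and are not analysed here.

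Glycolysis splits glucose into pyruvate in the cytosol, and lactate dehydrogenase converts pyruvate and lactate into each other. Cells supply several steps through isoenzymes encoded by separate genes, and in brain astrocytes are known for a more glycolytic metabolism than neurons. Hypoxia-inducible factor, HIF, is a dimer whose alpha subunit is hydroxylated by oxygen-dependent prolyl hydroxylases and then degraded; when oxygen is scarce the subunit persists, and the dimer binds short DNA elements with the core ACGTG or GCGTG beside its target genes. Most genes of glycolysis are among its known targets, as are those for vascular endothelial growth factor and for the mitophagy receptors of the Bnip3 family.

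The deposited values are FPKM, fragment numbers scaled to transcript length and library size. The spacing of the low values put the libraries at approximately 11800000 fragments in the etoposide culture and 14100000 fragments in its control, and at 17900000 fragments in the NMDA culture and 19400000 fragments in its control. One small RNA gene, Mir5109, took 52.3 and 51.9% of the summed FPKM in the NMDA culture and its control, against 68.7 and 76.5% in the etoposide culture and its control. Levels set across the pairs are not on one scale: the median ratio of all genes, NMDA control over etoposide control, was 2.95. The part of Mir5109 in this difference was not tested. With 1 library in a group no test between groups was possible, and no difference below has a replicate check. Each FPKM ratio is therefore given with a 95% interval from the approximate fragment numbers, which covers counting error only and not the spread between cultures. A ratio is read against the median ratio of all genes at 1 FPKM or more in both libraries of the same comparison, and counts of genes against the share of all genes that met the same rule. Intervals narrow as fragment numbers rise, so counts of genes by interval set abundant members beside all genes at unlike precision. In RNA from whole cultures, fewer cells of a type and less RNA per cell cannot be told apart. Of the 9 neuron markers chosen, 8 have a row, and all of these were above 1 FPKM in every library. The neuronal tubulin gene Tubb3 stood at 101 FPKM in the etoposide culture and 209 FPKM in its control, and at 653 FPKM in the NMDA culture and 606 FPKM in its control. Astrocyte markers were present as well, with a summed level of 88.1 FPKM in the etoposide culture and 159 FPKM in its control, and of 1153 FPKM in the NMDA culture and 1186 FPKM in its control.

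**Figure D1:**
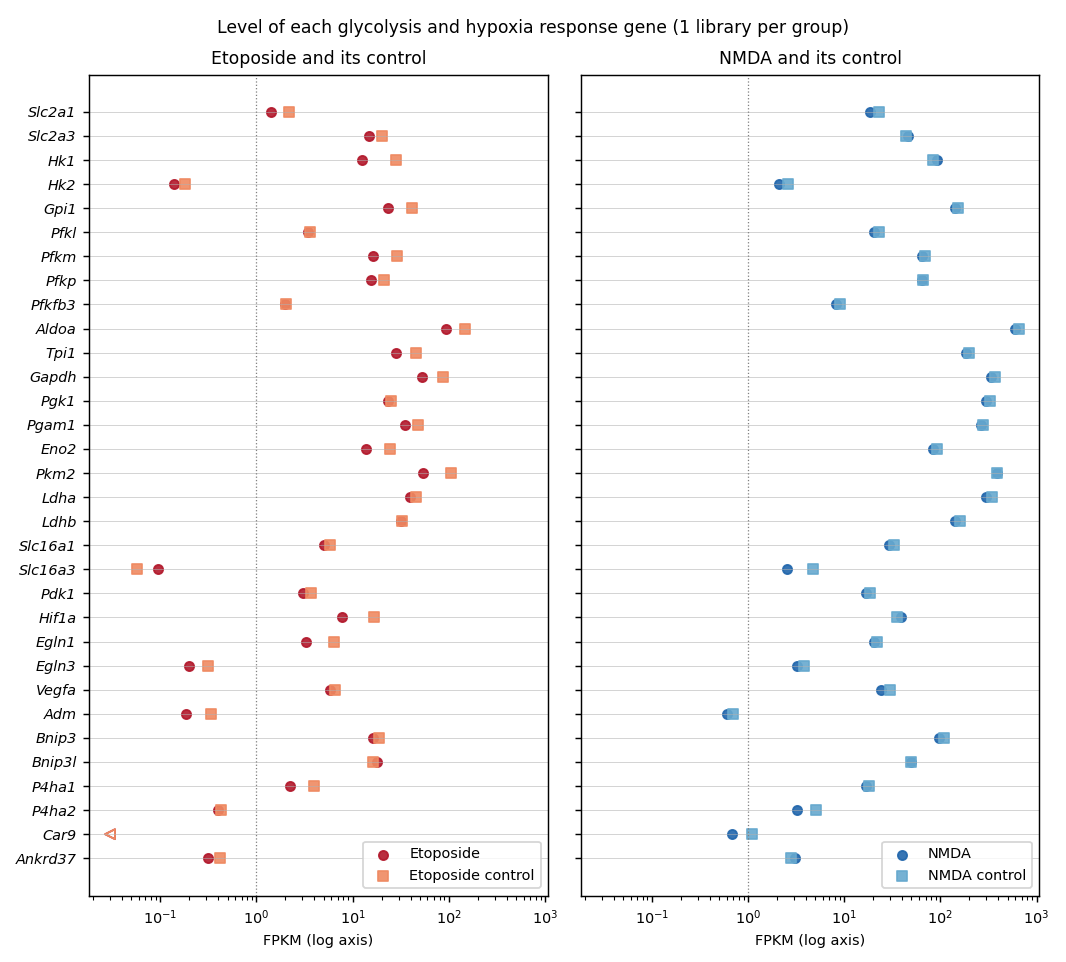
FPKM of the 32 genes on a log axis, with the etoposide culture and its control on the left and the NMDA culture and its control on the right, each point 1 library. The open triangles mark Car9, which lay below 0.001 FPKM in both libraries of the left pair; most genes sit further right in the NMDA pair.

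The genes spanned more than 3 orders of magnitude in level, and their order was led by glycolytic enzymes from the aldolase step onward. Aldoa, the aldolase that splits fructose bisphosphate, was the highest member in every library, with 94.5 FPKM in the etoposide culture, 149 FPKM in its control, 599 FPKM in the NMDA culture and 649 FPKM in the NMDA control. Pkm2, the pyruvate kinase gene now named Pkm, came second in every library, at 53.4, 107, 384 and 391 FPKM in that order of cultures. Gapdh, the glyceraldehyde-phosphate dehydrogenase, followed at 52.5, 87.7, 337 and 369 FPKM. All 3 of these exceeded every transporter, regulator and other HIF target of the set in each library. At the other end, the secreted peptide gene Adm stayed under 1 FPKM in all 4 libraries, at 0.185, 0.336, 0.601 and 0.694 FPKM, and enters no comparison. Car9, the membrane carbonic anhydrase that is a classical hypoxia marker, was below 0.001 FPKM in the etoposide culture and its control, against 0.684 and 1.09 FPKM in the NMDA culture and its control. At 1 FPKM or more were 25 of the 32 genes in the etoposide culture and 25 in its control, and 30 in the NMDA culture and 31 in its control. Of all 22440 genes, 9836 in the etoposide culture and 10459 in its control were at 1 FPKM or more, and 12775 in the NMDA culture and 12886 in its control. The genes under that level in both libraries of the etoposide pair were Hk2, Slc16a3, Egln3, P4ha2, Ankrd37, Car9 and Adm.

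The promoters of 6 members are shown because the comparisons below turn on them: Slc16a3, P4ha2 and Vegfa were the 3 lowest with NMDA, and Pgk1, Slc2a1 and Ldha the 3 highest between the controls, on the log2(FPKM + 1) scale. Each is 1 RefSeq window of the GRCm38.p6 build from 250 bases before to 50 bases after a start of the gene, 5′ to 3′ on the gene's own strand. Capitals mark the HIF core ACGTG or its reverse complement CACGT. The windows lie at chr11:120948817-120949116, plus strand for Slc16a3, at chr11:54100674-54100973, plus strand for P4ha2 and at chr17:46032328-46032627, minus strand for Vegfa. Those of the other three lie at chrX:106186850-106187149, plus strand for Pgk1, at chr4:119108495-119108794, plus strand for Slc2a1 and at chr7:46845554-46845853, plus strand for Ldha.
Slc16a3: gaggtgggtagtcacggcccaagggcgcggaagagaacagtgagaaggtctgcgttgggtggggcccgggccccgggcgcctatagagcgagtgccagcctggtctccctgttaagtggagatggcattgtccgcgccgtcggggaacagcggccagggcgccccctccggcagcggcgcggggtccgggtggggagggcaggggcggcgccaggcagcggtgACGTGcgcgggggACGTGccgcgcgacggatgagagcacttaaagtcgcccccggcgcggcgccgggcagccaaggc
P4ha2: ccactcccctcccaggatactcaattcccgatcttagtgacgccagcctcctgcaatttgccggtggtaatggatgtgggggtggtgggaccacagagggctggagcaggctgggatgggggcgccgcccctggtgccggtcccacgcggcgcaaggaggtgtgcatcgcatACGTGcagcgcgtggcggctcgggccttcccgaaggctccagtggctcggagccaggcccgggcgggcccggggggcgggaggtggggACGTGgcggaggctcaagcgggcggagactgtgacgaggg
Vegfa: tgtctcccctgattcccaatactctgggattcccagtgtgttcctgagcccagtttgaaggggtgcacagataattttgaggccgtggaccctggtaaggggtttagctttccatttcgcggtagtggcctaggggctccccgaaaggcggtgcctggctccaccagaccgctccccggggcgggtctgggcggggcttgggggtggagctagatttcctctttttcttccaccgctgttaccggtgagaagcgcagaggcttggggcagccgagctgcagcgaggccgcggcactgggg
Pgk1: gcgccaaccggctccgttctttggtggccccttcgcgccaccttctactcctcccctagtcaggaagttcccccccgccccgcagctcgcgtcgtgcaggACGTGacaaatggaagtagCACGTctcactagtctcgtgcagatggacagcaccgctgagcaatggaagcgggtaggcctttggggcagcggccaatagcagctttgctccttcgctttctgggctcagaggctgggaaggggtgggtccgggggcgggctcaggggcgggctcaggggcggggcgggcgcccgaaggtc
Slc2a1: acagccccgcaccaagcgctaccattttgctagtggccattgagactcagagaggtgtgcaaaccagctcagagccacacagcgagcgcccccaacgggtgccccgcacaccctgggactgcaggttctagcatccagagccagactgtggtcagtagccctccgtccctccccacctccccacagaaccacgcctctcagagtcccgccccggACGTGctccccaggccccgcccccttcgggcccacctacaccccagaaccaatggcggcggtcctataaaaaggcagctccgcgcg
Ldha: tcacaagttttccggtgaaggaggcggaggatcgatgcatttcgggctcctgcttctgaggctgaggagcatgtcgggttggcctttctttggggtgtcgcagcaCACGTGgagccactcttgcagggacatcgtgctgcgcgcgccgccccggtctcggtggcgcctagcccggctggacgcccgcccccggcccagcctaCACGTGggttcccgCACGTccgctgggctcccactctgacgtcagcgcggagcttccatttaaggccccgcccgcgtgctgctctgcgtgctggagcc
The Slc16a3, P4ha2 and Pgk1 windows each hold 2 matches, the Slc2a1 window 1 and the Vegfa window 0. In the Ldha window 5 matches were counted, since the palindrome CACGTG, which is also the E-box core, counts once on each strand. RefSeq gave windows for 31 of the named genes, 44 windows in all, Eno1 included. At least 1 ACGTG match, on either strand, was found in 22 of these 31 genes, or 71.0%, against 21.8% of all 27025 genes with a window. The windows of the set were also richer in G and C, with a median of 62.8% against 52.7% over all windows. Among windows with at least 60% G and C, 19 of 26 windows of the set held the core, or 73.1%, against 26.5% of all such windows. The other HIF core, GCGTG, was in 54.5% of the set's windows against 32.4% of all windows, and CACGTG in 13.6% against 7.15%. On the mm9 build of the expression tables the whole genes lie at chr11:120809798-120820314 for Slc16a3, chr11:53914426-53945169 for P4ha2, chr17:46153943-46169326 for Vegfa, chrX:103382463-103399038 for Pgk1, chr4:118781350-118809934 for Slc2a1 and chr7:54101174-54110997 for Ldha. The core matches are matches of letters and not measured binding, and the 0 for Vegfa says only that the core is not in this window. Vegfa has a second RefSeq window, at chr17:46025114-46025413 on the minus strand, which holds 1 match to ACGTG and 1 to GCGTG. Ldha also has a second window, at chr7:46846832-46847131 on the plus strand, with 0 matches to ACGTG and 2 to GCGTG.

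The comparison of the etoposide culture with its control asks how gene expression stood when topoisomerase II was held on DNA. Of the 32 genes, 25 reached 1 FPKM in either library and were compared; the 7 named above were not. In FPKM as deposited, 24 of the 25 were lower with etoposide, where 76.7% of all 10681 genes compared were lower, and the median ratio of all genes was 0.762. Read against that median, 10 of 12 glycolytic enzymes lay below it, as did both glucose transporters, Hif1a, Egln1 and P4ha1. Above it lay both lactate dehydrogenases, both mitophagy receptors, both regulatory kinases, the lactate transporter Slc16a1 and Vegfa. The counting intervals of Slc16a1, Pdk1 and Vegfa held the median ratio. The side of several genes rests on small differences: with no filter on low values Ldha (-0.09), Slc16a1 (-0.07), Pdk1 (-0.10), Vegfa (-0.01) and Bnip3 (-0.06) lay below the median, and relative to genes of like span Ldha lay at -0.04 and Pfkp at 0.23. In all, 15 lay below the median of all genes and 10 above it, where 50.0% of all genes lie on each side. A small fold was counted from a difference of 0.32 on the log2 scale relative to all genes. By at least that much 10 of the 25 were lower, or 40.0%, against 23.2% of all genes, and 1 was higher, or 4.0%, against 23.3%. The number higher was between 0 and 4 under the other settings tried. The authors' deposited table of genes changed by etoposide lists 680 genes as lower (3.03% of all) and 12 as higher (0.0535%), and none of the 32 is among them.

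Among the glycolytic enzymes the largest decrease was in Hk1, the main hexokinase of brain, which phosphorylates glucose on its entry. Hk1 had 12.6 FPKM in the etoposide culture, against 28.1 FPKM in its control, a ratio of 0.448 (interval 0.408 to 0.491). Pkm2, which makes pyruvate, had 53.4 FPKM with etoposide and 107 FPKM in the control, a ratio of 0.501 (0.470 to 0.534). Both intervals lay below the median ratio of all genes. Gpi1, the glucose-phosphate isomerase, had a ratio of 0.560 (0.517 to 0.608), with 23.3 FPKM with etoposide and 41.7 FPKM in the control. Eno2, the neuronal enolase, had a ratio of 0.564 (0.503 to 0.631), with 13.6 FPKM with etoposide and 24.2 FPKM in the control. Pfkm, the muscle-type phosphofructokinase, stood at 16.5 FPKM with etoposide against 29.1 FPKM, a ratio of 0.566 (0.511 to 0.627). Gapdh, Tpi1 and Aldoa, 3 successive enzymes of the middle of the pathway, had ratios of 0.598, 0.627 and 0.635. Pfkp and Pgam1, the platelet-type phosphofructokinase and the phosphoglycerate mutase, had ratios of 0.728 and 0.735, and their intervals held the median ratio. The exceptions were Pgk1 and Pfkl. Pgk1, the phosphoglycerate kinase that makes the first ATP of the pathway, had 23.3 FPKM with etoposide and 25.2 FPKM in the control, a ratio of 0.928 (0.824 to 1.04). Pfkl, the liver-type phosphofructokinase, had 3.47 FPKM with etoposide and 3.64 FPKM in the control, a ratio of 0.952 (0.764 to 1.18).

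The lactate dehydrogenase genes were nearer to their control level than 10 of the 12 glycolytic enzymes. Ldha, the muscle-type subunit, had 39.5 FPKM with etoposide and 45.8 FPKM in the control, a ratio of 0.863 (0.789 to 0.946). Ldhb, the heart-type subunit, had 32.1 FPKM with etoposide and 32.9 FPKM in the control, a ratio of 0.974 (0.863 to 1.10). The monocarboxylate transporter Slc16a1, which carries lactate across the membrane, had a ratio of 0.855 (0.726 to 1.00). Slc2a3, the neuronal glucose transporter, and Slc2a1, the transporter of astrocytes and of the blood-brain barrier, had ratios of 0.720 (0.667 to 0.777) and 0.636 (0.430 to 0.934), both with intervals that held the median ratio. Of the regulatory kinases, Pfkfb3, which makes the allosteric activator of phosphofructokinase, stood at 2.0 FPKM with etoposide and 2.02 FPKM in the control. Pdk1, the pyruvate dehydrogenase kinase that limits entry into the citric acid cycle, stood at 3.02 FPKM with etoposide and 3.68 FPKM in the control.

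The oxygen-sensing genes lay below the median, and the mitophagy receptors and Vegfa above it. Hif1a, the oxygen-regulated subunit of HIF, had 7.69 FPKM in the etoposide culture, against 16.6 FPKM in its control, a ratio of 0.464 (0.414 to 0.519). Egln1, the main prolyl hydroxylase that marks it for destruction, had 3.30 FPKM with etoposide and 6.47 FPKM in the control, a ratio of 0.510 (0.415 to 0.626). P4ha1, a collagen prolyl hydroxylase subunit, had a ratio of 0.552 (0.433 to 0.697). Bnip3l was the 1 gene of the 25 that was higher as deposited, with 17.9 FPKM with etoposide and 16.1 FPKM in the control, a ratio of 1.11 (1.00 to 1.24). Its relative Bnip3 had 16.4 FPKM with etoposide and 18.6 FPKM in the control, and Vegfa, the angiogenic growth factor, had 5.84 FPKM with etoposide and 6.49 FPKM in the control. In all, the counting interval lay below the median ratio for 11 of the 25 genes, against 30.5% of all genes, and above it for 7, against 24.1%. Only Hk1 and Hif1a were at least 2-fold lower as deposited on the log2(FPKM + 1) scale, 2 of 25 or 8.00%, where 7.36% of all genes were.

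The median of the 25 genes was -0.11 relative to all genes, on the scale of log2(FPKM + 1) differences used for all list medians. This value turns on genes whose exons overlap a gene on the opposite strand: without the members so placed, it was 0.10. Hk1, Hif1a, Gpi1 and Tpi1 are among them, and the sources used here do not say whether fragments were counted by strand. Genomic span was set beside the result as well. Across all genes the log2 fold with etoposide was lower in genes of longer genomic span (Spearman rho = -0.44 across 10681 genes, a description, since genes share their libraries), and across the 25 members rho was -0.15. The members' median span was 22.8 kb, against 25.8 kb over all genes. Relative to genes of like span the median of the 25 was -0.13, with 15 below the median and 10 lower by at least 0.32. These were not the same 10, since Pfkm left, at -0.12, and Pgam1 entered, at -0.34. Hk1 stood at -0.43 on this reading and was no longer the lowest enzyme, with Pkm2 at -0.70, Gapdh at -0.64 and Eno2 at -0.62. The markers of neurons and of astrocytes were also lower relative to all genes, by a median of -0.53 over 8 neuron markers, 7 of them below the median, and of -0.54 over 9 astrocyte markers, 8 of them below it. Markers of the oligodendrocyte lineage summed to 5.39 FPKM in the etoposide culture and 20.6 FPKM in its control. Most of this was Olig1, at 3.36 and 16.6 FPKM, while Mog was higher with etoposide, at 0.696 against 0.369 FPKM. Those of progenitors summed to 6.63 FPKM with etoposide and 16.5 FPKM in the control. Vascular and mural markers summed to 0.534 FPKM with etoposide and 5.55 FPKM in the control. Of these, Acta2 alone had 0.0944 FPKM with etoposide and 4.61 FPKM in the control, and 3 of the 8 were at 0 in each library. Microglial markers summed to 0.350 FPKM with etoposide and 0.359 FPKM in the control. The part of these in the result was not tested.

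**Figure D2:**
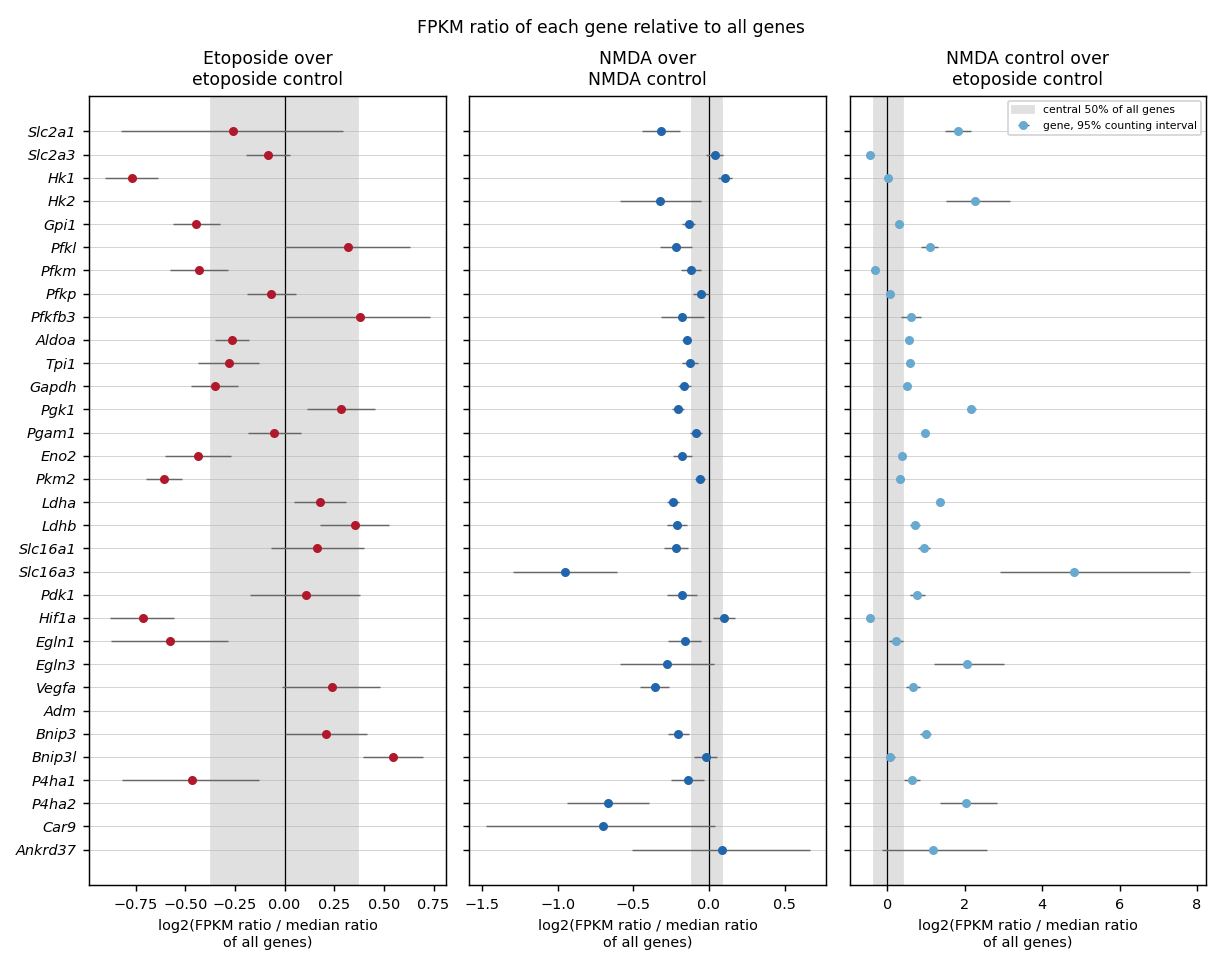
Log2 of each gene's FPKM ratio over the median ratio of all genes in the 3 comparisons, for genes at 1 FPKM or more in either library, with bars for 95% counting intervals and grey bands for the central 50% of all genes; the x axes differ in range. With etoposide the enzymes split around 0, with NMDA 27 of 31 genes lie on the low side on the log2(FPKM + 1) scale, and between the controls Pgk1, Slc2a1, Ldha and Slc16a3 stand far to the right; Car9 has no ratio in the right panel because its level in the etoposide control was near 0.

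The NMDA comparison asks how expression stood shortly after glutamate receptor stimulation. In it 31 of the 32 genes were compared, and the differences were small but ran mostly one way. As deposited, 26 of the 31 were lower with NMDA, where 42.8% of all 13028 genes compared were lower, and the median ratio of all genes was 1.02. Below the median of all genes were 27, or 87.1%, against 50.0% of all genes; the 4 above it were Hif1a, Hk1, Slc2a3 and Ankrd37. The median of the 31 was -0.16 relative to all genes, at the median percentile 15.8 of the genes compared. The counting interval lay below the median ratio for 23 of the 31, against 14.8% of all genes, and above it for Hif1a and Hk1, 6.45% against 15.0%. Small differences pass this rule more readily in abundant genes, such as Aldoa with an estimated 19463 fragments in the NMDA control. Only 4, Slc16a3, P4ha2, Vegfa and Car9, were lower by at least 0.32 on the log2 scale relative to all genes, 12.9% against 4.71% of all genes, and 0 were as much higher, against 1.73%. No member was 2-fold lower or higher as deposited, where 0.729% and 0.438% of all genes were.

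The genes furthest below the median with NMDA were HIF targets outside the enzymes of glycolysis. Slc16a3, the lactate exporter of highly glycolytic cells, had 2.51 FPKM in the NMDA culture, against 4.77 FPKM in its control, a ratio of 0.527 (interval 0.417 to 0.669). It is the 1 member in the authors' deposited table of genes changed by NMDA, which lists it as lower, among 38 genes so listed (0.169% of all genes). P4ha2, a collagen prolyl hydroxylase subunit, had 3.26 FPKM with NMDA and 5.07 FPKM in the control, a ratio of 0.642 (0.532 to 0.777). Vegfa had 24.1 FPKM with NMDA and 30.2 FPKM in the control, a ratio of 0.796 (0.744 to 0.851). These 3 intervals lay below the median ratio. All 3 genes have a promoter window with the HIF core, which for Vegfa is the window not printed. Car9 had 0.684 FPKM with NMDA and 1.09 FPKM in the control, but its interval, 0.367 to 1.05, held the median ratio. It passed the filter of 1 FPKM through the control alone, so the filter set its direction as deposited. Slc2a1 had 18.7 FPKM with NMDA and 22.8 FPKM in the control, a ratio of 0.820 (0.750 to 0.896). Hk2, the inducible hexokinase, had 2.10 FPKM with NMDA and 2.57 FPKM in the control, a ratio of 0.817 (0.680 to 0.984). Egln3, a prolyl hydroxylase that HIF itself induces, had 3.24 FPKM with NMDA and 3.84 FPKM in the control, and its interval of 0.680 to 1.05 held the median ratio.

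The abundant enzymes lay slightly but repeatedly below the median. Ldha had 300.6 FPKM with NMDA and 347 FPKM in the control, a ratio of 0.866 (0.843 to 0.890), and Ldhb a ratio of 0.882 (0.842 to 0.924). Pgk1 had 294 FPKM with NMDA and 332 FPKM in the control, a ratio of 0.887 (0.864 to 0.912). Pfkl, Eno2, Gapdh and Aldoa had ratios of 0.879, 0.905, 0.912 and 0.922, and Gpi1, Tpi1 and Pfkm ratios of 0.931, 0.938 and 0.94. Pgam1, Pkm2 and Pfkp, at 0.962, 0.981 and 0.984, came closest to the median ratio among the enzymes below it. Bnip3 had 96.5 FPKM with NMDA and 109 FPKM in the control, whereas Bnip3l had 50.0 FPKM with NMDA and 49.8 FPKM in the control. Slc16a1, Pdk1, Pfkfb3, Egln1 and P4ha1 had ratios between 0.879 and 0.926.

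The genes on the other side were few. Hif1a had 38.9 FPKM with NMDA and 35.6 FPKM in the control, a ratio of 1.09 (1.04 to 1.15). Hk1 had 91.5 FPKM with NMDA and 83.2 FPKM in the control, a ratio of 1.10 (1.06 to 1.14). Slc2a3 had 45.8 FPKM with NMDA and 43.7 FPKM in the control, a ratio of 1.05 (1.01 to 1.09), and Ankrd37, a small HIF target, had 3.07 FPKM with NMDA and 2.83 FPKM in the control, with an interval of 0.717 to 1.62. Exons of Hif1a, Hk1 and Ankrd37, like those of Slc16a3 and Car9 among the lowest genes, overlap a gene on the opposite strand; without the members so placed 21 of 22 lay below the median. Most glial markers also lay below it. Of the astrocyte markers 9 of 10 lay below the median of all genes, with a median of -0.09, and of the oligodendrocyte lineage markers 8 of 8, with a median of -0.08, while 7 of 8 neuron markers lay above it, with a median of 0.06. The only microglial marker compared, Aif1, had 1.84 FPKM with NMDA and 2.63 FPKM in the control, and the 3 vascular and mural markers compared had a median of -0.08, 2 of them below the median of all genes. The 6 progenitor markers compared had a median of -0.04. Summed levels were 1669 FPKM with NMDA and 1573 FPKM in the control for neuron markers, and 190.5 FPKM with NMDA and 195 FPKM in the control for oligodendrocyte lineage markers. The part of these in the result was not tested. Against the other control, with both libraries scaled to the same median, the direction of the set turned and its median was 0.37. That value also holds the difference between the controls, given below.

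The 2 control libraries differ in no treatment the labels name, yet the set stood apart from all genes between them, with a median of 0.63 relative to all genes at the median percentile 83.6. All genes also spread more widely here, with quartiles of -0.32 and 0.40 relative to their median, against -0.10 and 0.08 with NMDA. The median ratio of all genes, NMDA control over etoposide control, was 2.95. All 31 genes compared were at least 2-fold higher in the NMDA control as deposited, where 75.1% of all 12987 genes were. Of these, Hk2, Slc16a3, Egln3, P4ha2, Ankrd37 and Car9 were under 1 FPKM in the etoposide control. They passed the filter through the NMDA control alone, so the filter set their direction as deposited. They stay in the counts that follow. Above the median of all genes were 27 of the 31, or 87.1%, against 50.0%. By at least 0.32 on the log2 scale 21 were higher relative to all genes, or 67.7%, against 29.0% of all genes, and 0 were as much lower, against 24.9%, a number that was between 0 and 3 under the other settings tried. At least 2-fold higher relative to all genes were 7, or 22.6%, against 8.02%. The 7 were Pgk1, Slc2a1, Ldha, Pgam1, Bnip3, Slc16a3 and Pfkl. The counting interval lay above the median ratio for 24 of the 31, against 37.0% of all genes, Car9 among them through a lower bound alone, and below it for 3, against 28.0%. This comparison shares a library with each of the 2 treatment comparisons, so its values are not independent of theirs.

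Pgk1 stood furthest apart among the abundant enzymes, with 332 FPKM in the NMDA control and 25.2 FPKM in the etoposide control, a ratio of 13.2 (interval 12.2 to 14.3). Slc2a1 had 22.8 FPKM in the NMDA control and 2.20 FPKM in the etoposide control, a ratio of 10.4 (8.29 to 13.2). Ldha had 347 FPKM in the NMDA control and 45.8 FPKM in the etoposide control, a ratio of 7.57 (7.13 to 8.06). These are the 3 genes whose promoters are printed above for their place in this comparison. Pfkl had a ratio of 6.30, Bnip3 of 5.85, Pgam1 of 5.84, Slc16a1 of 5.65 and Pdk1 of 5.05. Ldhb, Vegfa, P4ha1 and Pfkfb3 had ratios between 4.53 and 4.82, and Tpi1, Aldoa and Gapdh ratios of 4.4, 4.36 and 4.21. Eno2, Pkm2, Gpi1 and Egln1 lay nearer to the median ratio, at 3.80, 3.67, 3.65 and 3.42. Pfkp, Bnip3l and Hk1 were at 3.10, 3.09 and 2.96, all with intervals that held the median ratio.

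Several genes of low level had high ratios on few fragments. Slc16a3 had 4.77 FPKM in the NMDA control and 0.0576 FPKM in the etoposide control, a ratio of 82.8 with a wide interval of 22 to 667. Hk2 had 2.57 FPKM in the NMDA control and 0.181 FPKM in the etoposide control, a ratio of 14.2 (8.37 to 26.5). Egln3 had a ratio of 12.3 (6.75 to 23.7) and P4ha2 of 12 (7.57 to 20.8), each under 0.5 FPKM in the etoposide control. Ankrd37 had 2.83 FPKM in the NMDA control and 0.420 FPKM in the etoposide control, and its interval of 2.66 to 17.7 held the median ratio. On the other side of the median were Pfkm, with a ratio of 2.37 (2.22 to 2.53), Hif1a, with 2.15 (2.0 to 2.30), and Slc2a3, with 2.14 (2.03 to 2.26). Car9 also lay below it on the log2(FPKM + 1) scale, at -0.26. It was below 0.001 FPKM in the etoposide control, and the lower bound of its ratio, 8.15, lay above the median ratio. The side of Car9 thus turns on the scale used. Hif1a itself lay below the median of all genes here, while 27 members lay above it. Markers of cell types other than neurons moved with this result. All 10 astrocyte markers lay above the median of all genes, with a median of 1.39 and a summed level of 1186 FPKM in the NMDA control and 159 FPKM in the etoposide control. The oligodendrocyte lineage markers had a median of 1.13, with 195 FPKM in sum in the NMDA control and 20.6 FPKM in the etoposide control. The progenitor markers had a median of 1.35, with 105 FPKM in sum in the NMDA control and 16.5 FPKM in the etoposide control. The neuron markers had a median of 0.13, with 1573 FPKM in sum in the NMDA control and 597 FPKM in the etoposide control. Microglial markers summed to 4.57 FPKM in the NMDA control and 0.359 FPKM in the etoposide control, where 2 of the 7 were at 0, and vascular and mural markers to 32.2 and 5.55 FPKM, with 3 of 8 at 0 in the etoposide control. The part of these cell types in the result was not tested, and a difference of culture or preparation cannot be told apart from one of sequencing.

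**Figure D3:**
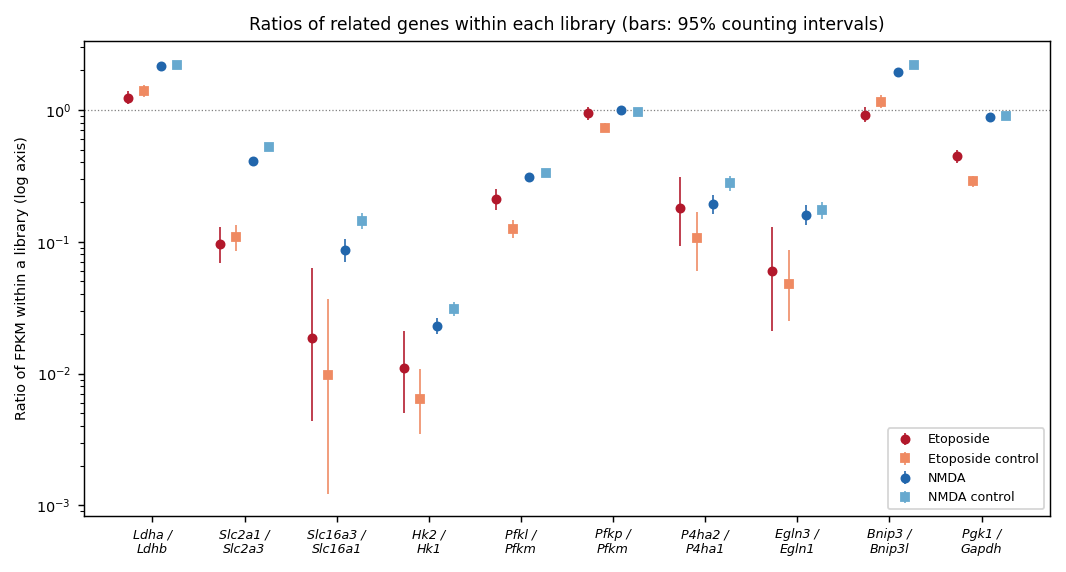
Ratio of the FPKM of 2 related genes within each library, on a log axis, for 10 pairs; points are the 4 libraries, bars are 95% counting intervals. All 10 ratios, read as points, sit higher in both libraries of the NMDA pair than in both of the etoposide pair, though some intervals overlap between the pairs. The gene placed on top sets the direction of a ratio, and no share over pairs of other genes is set beside this count. For Pfkp over Pfkm the gap is small, with 0.938 in the etoposide culture and 0.956 in the NMDA control.

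Ratios of related genes within a library do not depend on how libraries are scaled, and 10 pairs were set out. The pair Pgk1 and Gapdh, which are neighbouring enzymes and not isoenzymes, was chosen after its values were seen. The lactate dehydrogenase ratio, Ldha over Ldhb, was 1.23 in the etoposide culture and 1.39 in its control, and 2.14 in the NMDA culture and 2.18 in its control. Slc2a1 over Slc2a3 was 0.0955 in the etoposide culture and 0.108 in its control, and 0.408 in the NMDA culture and 0.522 in its control. Both differed more between the pairs of cultures than between treatment and control. Hk2 stayed a small part of the hexokinase signal, at 0.0111 of Hk1 in the etoposide culture and 0.00645 in its control, and at 0.0230 in the NMDA culture and 0.0309 in its control. Pfkl over Pfkm was 0.211 in the etoposide culture and 0.125 in its control, with counting intervals of 0.175 to 0.252 and 0.107 to 0.146 that did not overlap. In the NMDA culture that ratio was 0.312, against 0.333 in its control, with intervals that overlapped. As a share of the 3 phosphofructokinase genes, Pfkl made up 9.81% in the etoposide culture and 6.75% in its control, and 13.5% in the NMDA culture and 14.5% in its control. Pfkp over Pfkm was 0.938 in the etoposide culture and 0.730 in its control, and 1.00 in the NMDA culture and 0.956 in its control. Pgk1 over Gapdh was 0.445 in the etoposide culture and 0.287 in its control, and 0.875 in the NMDA culture and 0.900 in its control.

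Between the NMDA culture and its control the intervals did not overlap for Slc2a1 over Slc2a3, Hk2 over Hk1 and Slc16a3 over Slc16a1. The same held for P4ha2 over P4ha1 and Bnip3 over Bnip3l. Between the etoposide culture and its control they did not overlap for Pfkl over Pfkm, Pfkp over Pfkm and Pgk1 over Gapdh. No share over pairs of other genes is set beside these. Slc16a3 over Slc16a1 was 0.0864 in the NMDA culture (interval 0.0708 to 0.105) and 0.144 in its control (0.125 to 0.165). P4ha2 over P4ha1 was 0.192 in the NMDA culture (0.163 to 0.225) and 0.277 in its control (0.244 to 0.314). Egln3 over Egln1 was 0.160 in the NMDA culture and 0.173 in its control, with overlapping intervals, and Bnip3 over Bnip3l was 1.93 in the NMDA culture and 2.19 in its control. In the etoposide pair the ratios of Slc16a3, P4ha2 and Egln3 rest on few fragments, and all their intervals overlapped between the etoposide culture and its control. Bnip3 over Bnip3l was 0.916 in the etoposide culture (0.803 to 1.05) and 1.16 in its control (1.03 to 1.30), also with overlapping intervals.

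The rest of the pathway was read through 6 lists of other genes. The other glycolytic isoenzymes had a median of 0.15 relative to all genes with etoposide (5 of 9 above the median of all genes), of 0.01 with NMDA (6 of 10) and of 0.03 between the controls (6 of 10). Aldoc, the brain aldolase and also an astrocyte marker, had 11.5 FPKM in the etoposide culture and 21.8 FPKM in its control, and 305 FPKM in the NMDA culture and 301 FPKM in its control. The muscle enolase Eno3 had 0.558 FPKM in the etoposide culture and 1.31 FPKM in its control, and 3.05 FPKM in the NMDA culture and 2.32 FPKM in its control. Pgm1, a phosphoglucomutase, had 1.50 FPKM with etoposide and 1.23 FPKM in the control. The other glucose and lactate carriers had a median of -0.66 with etoposide, with 0 of 5 above the median of all genes, of 0.08 with NMDA (4 of 7) and of 0.08 between the controls (5 of 7). In this list Slc16a7, the neuronal lactate carrier, had 1.70 FPKM with etoposide and 4.4 FPKM in the control. Bsg, the chaperone of the lactate carriers, had 395 FPKM in the NMDA control and 85.5 FPKM in the etoposide control.

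The genes of pyruvate use had a median of -0.03 with etoposide (5 of 11 above), of 0.02 with NMDA (7 of 12) and of 0.27 between the controls (9 of 12). Brp44 and Brp44l, the subunits of the mitochondrial pyruvate carrier under older symbols, were among the higher ones with etoposide: Brp44 had 29.7 FPKM with etoposide and 21.6 FPKM in the control, and Brp44l 43.9 FPKM with etoposide and 40.2 FPKM in the control. Pcx, the pyruvate carboxylase that is prominent in astrocytes, had 16.1 FPKM in the NMDA control and 2.89 FPKM in the etoposide control. The pentose phosphate and glycogen genes had a median of -0.12 with etoposide (3 of 10 above), of -0.05 with NMDA (2 of 10) and of 0.46 between the controls (10 of 10). Tkt, the transketolase, had 15.0 FPKM with etoposide and 30.2 FPKM in the control. Ppp1r3c, a glycogen-targeting subunit of protein phosphatase 1, had 21.3 FPKM in the NMDA control and 1.27 FPKM in the etoposide control.

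The regulators of HIF had a median of 0.18 with etoposide (5 of 8 above), of 0.00 with NMDA (5 of 9) and of -0.24 between the controls (3 of 9). With etoposide, Vhl, which recognises hydroxylated HIF, had 7.50 FPKM against 6.99 FPKM in the control, and Cited2, which competes with HIF for its coactivators, 10.3 FPKM against 8.15 FPKM. The coactivator genes were lower: Crebbp had 3.42 FPKM with etoposide and 6.45 FPKM in the control, and Ep300 had 1.73 FPKM with etoposide and 3.55 FPKM in the control. Arnt2, the neuronal partner subunit, had 9.01 FPKM with etoposide and 16.7 FPKM in the control, while Arnt had 1.22 FPKM with etoposide and 1.38 FPKM in the control. Egln2 and Hif1an, oxygen-dependent hydroxylases, had 9.4 and 3.07 FPKM with etoposide, against 10.3 and 3.59 FPKM in the control. Epas1, the alternative alpha subunit, was under 1 FPKM in both libraries of the etoposide pair, and had 4.5 FPKM in the NMDA culture and 4.30 FPKM in its control. With NMDA the regulator furthest from the median was Arnt, with 3.52 FPKM against 4.06 FPKM in the control.

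The other hypoxia-responsive genes had a median of 0.32 with etoposide (11 of 17 above); 9 lay at least 0.32 above all genes and 5 as far below them. Fam162a, a mitochondrial HIF target, had 7.86 FPKM with etoposide and 4.75 FPKM in the control. P4hb, the shared subunit of the collagen prolyl hydroxylases, had 34 FPKM with etoposide and 25 FPKM in the control, and the transcriptional repressor gene Bhlhe40 had 1.2 FPKM with etoposide and 4.08 FPKM in the control. With NMDA the list had a median of -0.06 (6 of 21 above), and the lysyl oxidase gene Loxl2 had 1.77 FPKM with NMDA and 2.44 FPKM in the control. Between the controls the median was 0.18 (14 of 21 above), and Fam162a and the cytokine gene Mif stood highest. Fam162a had 57.7 FPKM in the NMDA control and 4.75 FPKM in the etoposide control, and Mif 667 FPKM in the NMDA control and 79.6 FPKM in the etoposide control. On this scale the named set lay below all 6 of these lists with NMDA and above all 6 between the controls; the difference between lists was not tested.

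**Figure D4:**
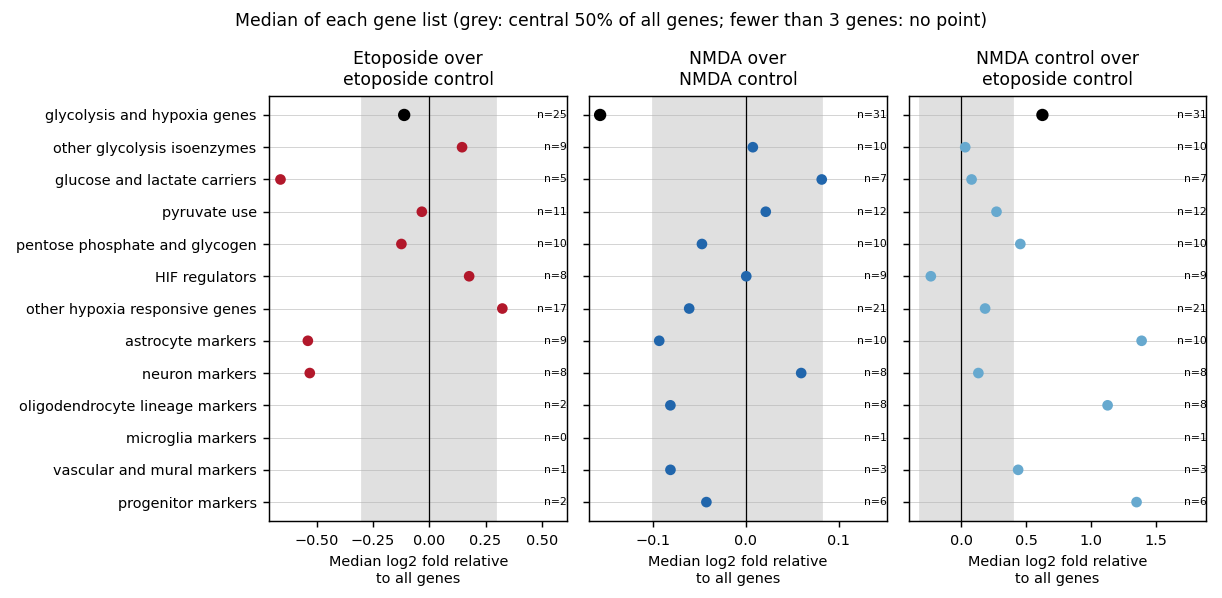
Median log2(FPKM + 1) difference relative to all genes for the glycolysis and hypoxia genes (black), for 6 lists of related genes and for 6 lists of cell type markers in the 3 comparisons, with the number of genes compared and the central 50% of all genes in grey. The named set has the lowest median with NMDA, at -0.16, and between the controls its 0.63 is exceeded by the astrocyte, oligodendrocyte lineage and progenitor markers.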

How the data were processed

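RNA was sequenced from 4 cultures with a TruSeq total RNA kit and paired ends, per the labels' protocols. The authors deposited 1 FPKM table per library and lists of changed genes; the tools they list, per the submitters' processing notes and with no role or order, include Cufflinks 2.0.0, Cuffdiff, TopHat and Bowtie, and the build is mm9. The authors' deposited fold values were used only for Slc16a3. The sources used here do not say if counting used strand.

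The members and lists were chosen with earlier results of these data known. Differences are log2((FPKM + 1)/(FPKM + 1)) for genes at 1 FPKM or more in either library, also after subtracting the median of all genes. Fragment numbers were approximated from FPKM, GENCODE vM1 transcript lengths and the steps of low values of 1454 single-exon genes, and give 95% conditional Clopper-Pearson intervals that cover counting error only. Named are members at 1 FPKM or more, members in the authors' lists, HIF regulators at that level, and from each list those among the 3 with the largest relative difference. Exons of 9 members overlap opposite-strand genes, and Gapdh, Ldha, Pgk1, Pgam1 and Tpi1 have processed pseudogenes, so their counts are uncertain. No test, and no p-value, was possible with 1 library per group. The scripts (Python 3.11.15, pandas 2.3.3, scipy 1.17.1) were tested on simulated data.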

Additional observations from a re-analysis of the deposited data

How the results depend on the processing

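Other pseudocounts (0.1 and 5 FPKM), other filters, other scalings, genes of like span and exchange of the control were set beside the values above. Genes of like level and the omission of members with overlapping exons were chosen after seeing the data. Counts under these settings are given without a share of all genes, and the number of members compared differs between settings. Against the other control with median scaling, the etoposide median relative to all genes was -0.68. Of 31 members compared there, against 25 in the main setting, 29 lay below the median of all genes and 23 were lower by at least 0.32 on the log2 scale. Against the other control the NMDA median was 0.37, with 4 below, Vegfa at 0.22 and P4ha2 at 0.51. Without members with overlapping exons, the etoposide median was 0.10, with 9 below and 6 as much lower; 2 members were as much lower with NMDA; between the controls the median was 0.74 with 2 below. The 4 genes lower by at least 0.32 with NMDA became 1 with a pseudocount of 5 FPKM, 2 at 5 FPKM or more in either library and 2 relative to genes of like span. Between the controls the median was 0.84 with no filter, 0.52 with median scaling, 0.36 with sum scaling without the largest gene and 0.49 relative to genes of like level, and Egln3 was at -0.12 with a pseudocount of 5 FPKM. The number of members higher by at least 0.32 with etoposide, 1 as reported, was 4 with a pseudocount of 0.1 FPKM, 0 with a pseudocount of 5 FPKM or no filter, and 2 with median scaling, with the filter at 5 FPKM, relative to genes of like span and against the other control; with NMDA it was 15 against the other control. The genes under 1 FPKM in the etoposide pair rest on few estimated fragments there, such as 9 in the etoposide culture and 14 in its control for Hk2. On 1 kb, 3 fragments correspond to 0.255 FPKM in the etoposide culture and 0.212 FPKM in its control. The part of depth in these low levels was not tested. Values against the other control also hold the difference between the controls. The cause of the shifts between settings was not tested. No paired analysis was possible because each group is 1 library.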
